A study of Homo sapiens with 6 samples.

Results

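The 10 genes of the high mobility group families HMGA, HMGB and HMGN were followed in a non-malignant human pancreatic duct line treated with chemotherapy. They were taken by name (HMGA1, HMGA2, HMGB1, HMGB2, HMGB3, HMGN1, HMGN2, HMGN3, HMGN4 and HMGN5) from a table of 62754 genes, and all 10 passed the filter that left 17951 genes for testing. RNA of 5 of them fell after treatment (HMGB2, HMGA1, HMGB3, HMGN2 and HMGA2), by 2.37-fold to 6.19-fold in the ratio of group means. None of the 10 rose in the unpaired test. HMGB1 (lower) and HMGN1 (higher) missed the threshold in that test and passed it when libraries were paired by the P number in their column names, and HMGN3, HMGN4 and HMGN5 did not pass the test in either fit.

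HPNE-hTERT is a single line of pancreatic duct cells immortalized with telomerase, so all 6 libraries share 1 source. The study set out to induce senescence in it with FOLFIRINOX, given for 4 days as a mixture of oxaliplatin at 5 µM, 5-fluorouracil at 10 µM and SN-38, the active form of irinotecan, at 25 nM. The other group received the vehicle DMSO and was also sampled at day 4. Poly(A)-enriched RNA was sequenced from 3 libraries per group. The columns of each group are named P14, P15 and P19, and those names are used below.

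High mobility group proteins are small, abundant chromatin proteins that bind DNA or nucleosomes with little sequence preference. HMGA proteins use AT-hooks to hold the minor groove of AT-rich DNA, HMGB proteins use HMG boxes to bend it, and HMGN proteins bind the nucleosome core and compete with linker histone H1. HMGA proteins are abundant in embryonic and many carcinoma cells, pancreatic ones among them. In senescent fibroblasts they are known from condensed heterochromatin foci, while HMGB2 is known to be lost and HMGB1 to leave the nucleus.

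Gene counts summed to between 83981154 and 97762802 reads per library, and values are normalized reads, that is, reads divided by the authors' library size factors. The share of reads from the mitochondrial ribosomal RNA genes was highest in the P14 library of each group, at 2.74% with FOLFIRINOX and 0.864% with vehicle. In P15 and P19 it was 1.18% and 1.23% with FOLFIRINOX and 0.563% and 0.552% with vehicle, so every FOLFIRINOX library was above every vehicle library. The label of ductal epithelium was met in part: KRT18 was at 7148 ± 363 with FOLFIRINOX and 9901 ± 905 with vehicle (SD, n = 3) and KRT8 was present, but KRT19, EPCAM and CFTR were near 0. The 8 ductal markers summed to 8896 to 9869 normalized reads with FOLFIRINOX and to 11878 to 14335 with vehicle. The 6 mesenchymal or progenitor markers, led by FN1, VIM and COL1A1, summed to 2245920.5 to 2679509 and to 3081669 to 4525446. Acinar and islet markers were at or near 0, and 4 leukocyte markers summed to at most 84.0 with FOLFIRINOX and 15.4 with vehicle. The treatment itself was visible in MKI67, the proliferation antigen, at 30.2 ± 6.65 against 13874 ± 3569, and in CDKN1A, the gene of the cell cycle brake p21, at 203806 ± 27900.2 against 22156 ± 4997. The part that these shifts play in the results on high mobility group genes was not tested, and in bulk RNA, fewer cells of a type and less RNA per cell cannot be told apart.

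Among the 10 genes, 5 were called lower and 0 higher by limma at a Benjamini-Hochberg adjusted p of 0.05. Over all genes tested, 12.2% were called lower and 11.4% higher. The 10 had a median log2 difference of -1.03, where the median over all genes tested was 0.02. Without adjustment 6 were lower and 0 higher at p under 0.05, against 18.0% and 18.2% of all genes tested. The count model of edgeR called 5 lower and 0 higher (13.3% and 10.1% of all genes tested). DESeq2 called 6 lower and 0 higher, against 6.97% and 6.69% of the 32997 genes for which it gave a log2 difference. Low genes were not filtered out of that set, so its shares are not on the same base as the others. With P number as a block the counts became 6 lower and 1 higher, against 21.8% and 22.3% of all genes tested. In 5 of the 10 genes the groups did not overlap, each time with FOLFIRINOX lower, which was so for 19.6% of all genes tested, and 19.9% had FOLFIRINOX higher without overlap. The labels name no separate cultures, and the p-values therefore cover the spread among these 6 libraries, which may be technical.

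**Figure D1:**
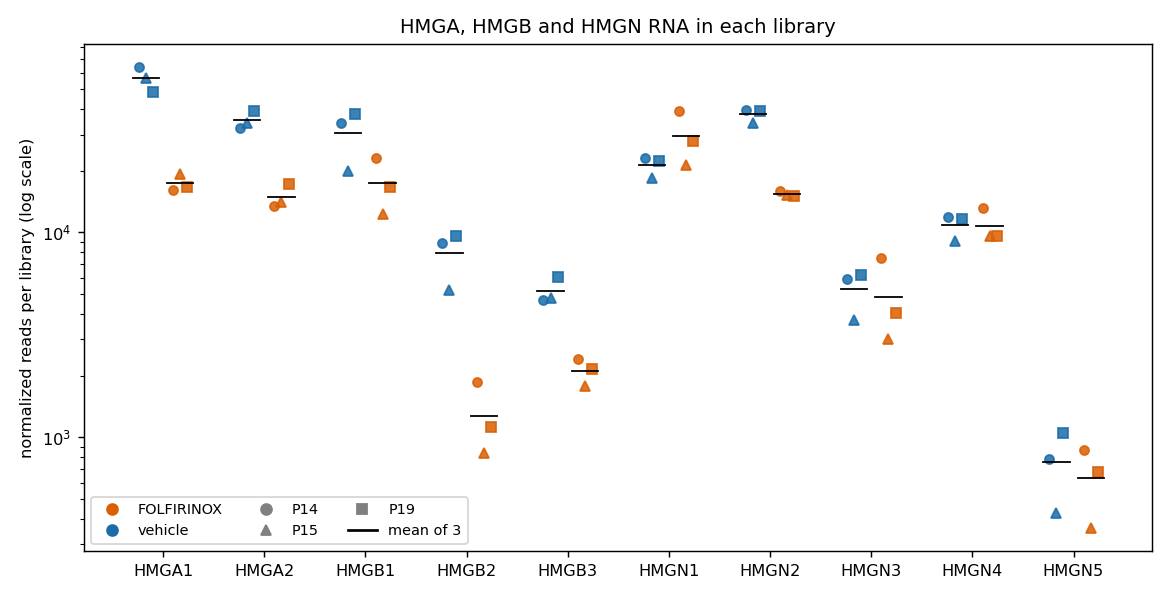
Normalized reads per library (log axis) for the 10 genes, with vehicle in blue and FOLFIRINOX in orange, marker shapes for P14, P15 and P19, and a bar at the mean of 3. The groups are separate for HMGA1, HMGA2, HMGB2, HMGB3 and HMGN2 and overlap for the other 5 genes.

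Genes that fall together when division stops are often described by shared promoter elements, so stretches of promoter are shown first. Whether such elements play a part in the falls seen here was not tested. The letters TTTAAA and TTTGAA are 2 forms of the cell cycle genes homology region, a short element read by the DREAM and MuvB complexes. Promoter windows from RefSeq (GRCh38.p14), which run from 250 bases before to 50 bases after a start site, were found for all but HMGA2 and HMGB2, that is, for 8 of the 10 genes, in 12 windows. Both strands were searched. TTTAAA is its own reverse complement, and all matches to TTTGAA lay on the strand of the gene. Capitals mark the element in the lines that follow, each written 5′ to 3′ on the strand of the gene.
HMGA1: ggcggccgccctTTTAAAtccccgggctca
HMGB3: cgaggaggctgtTTTAAAcggcagagcccg
HMGB3, second element: cgggtcgttctgTTTGAAtgaatgatccca
HMGN2: agaggaggtgagTTTAAAccccgcccacgt
HMGN4: cagtgtgtatctTTTAAAgactttttcagg
HMGB1: aaatTTTGAAcgtgttttgggc
The HMGA1 stretch lies at chr6:34236772-34236801, with the element 89 bases before the start. Those of HMGB3 lie at chrX:150983246-150983275, with the element 77 bases before the start, and at chrX:150983151-150983180, with it 172 bases before. The HMGN2 stretch lies at chr1:26472375-26472404 and its element 53 bases before the start. That of HMGN4 lies at chr6:26538162-26538191, 192 bases before the start for the element, and that of HMGB1 at chr13:30465469-30465490 on the minus strand, 246 bases before. The HMGB1 stretch is cut short by the edge of its window.

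TTTAAA was thus present in windows of HMGA1, HMGB3 and HMGN2, whose RNA fell, and of HMGN4, whose RNA did not pass the test. Of 35116 promoter windows in the same table, 12.2% held TTTAAA and 15.2% held TTTGAA, and 24.0% held at least 1 of them. CCAAT, the box bound by NF-Y, was in at least 1 window of HMGA1, HMGB1, HMGB3, HMGN1, HMGN2 and HMGN3 and in 34.6% of all windows, and it was not in the windows of HMGN4 and HMGN5. The strong E2F forms tttcgcgc and tttggcgc were in none of the 12 windows and in 1.15% of all windows. A gene is named here if any of its windows matched, and some genes have several windows, while the shares are per window. The number of genes named is therefore not on the same scale as these shares. These are matches of letters within short windows and are given as a description.

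HMGA1 (ENSG00000137309, chr6:34236873-34246231, plus strand, GRCh38 with GENCODE 29) encodes the more widely expressed of the 2 AT-hook proteins. It stood at 16129, 19172 and 16680.1 normalized reads in FOLFIRINOX P14, P15 and P19, and at 64042, 56662 and 48318 in vehicle P14, P15 and P19. Every vehicle library was far above every treated one, and the order of the libraries within a group was not shared. The means were 17327 ± 1621 and 56341 ± 7867 (SD, n = 3), a 3.25-fold fall. The log2 difference was -1.70 ± 0.16 (SE, 95% interval -2.05 to -1.34), with a limma adjusted p of 2.57e-05.

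HMGA2 (ENSG00000149948, chr12:65824131-65966295, plus strand) encodes the embryonic AT-hook protein, which is re-expressed in many tumours. Treated libraries held 13369, 13976 and 17125 normalized reads and vehicle libraries 32184, 34324 and 38995, in the order P14, P15 and P19. Both groups ran in the same order and did not overlap. The means were 14823 ± 2016 and 35168 ± 3483, a 2.37-fold fall. On the log2 scale the difference was -1.25 ± 0.16 (95% interval -1.60 to -0.90, limma adjusted p = 2.66e-04), and the 3 P numbers gave -1.27, -1.30 and -1.19.

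HMGA2 is the textbook target of the let-7 microRNAs, which pair with its 3′ UTR through their seed, bases 2 to 8. The mature sequence of let-7b, from RefSeq, is printed with its seed in capitals, followed by the 4 places in the HMGA2 3′ UTR (3003 bases in the GENCODE 29 transcript with most matches) that hold the full seed match, in capitals at the 3′ end of each line.
hsa-let-7b-5p: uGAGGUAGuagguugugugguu
site 1: gccaacgttcgatttCTACCTC
site 2: ccccactactcaataCTACCTC
site 3: ttgacttgcaaagacCTACCTC
site 4: aatcaaaacacactaCTACCTC
Counted from 1 at the first base after the stop codon, the matches begin at positions 21, 1256, 1668 and 2521. HMGA1 had 1 match in a 3′ UTR of 1347 bases, and the other 8 genes had 0. Of 19071 coding genes, 10.6% had a match, and of the 3421 with a 3′ UTR at least as long as that of HMGA2, 26.3% had one. Only 13 genes, HMGA2 included, had 4 or more. Mature let-7 was not measured in these libraries.

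Other genes are known to act on HMGA2 mRNA through let-7 and the IGF2BP proteins. Of the 9 listed, 6 were tested, with a median log2 difference of -0.22. Of the 6, 0 were called higher and 2 lower, against 11.4% and 12.2% of all genes tested. IGF2BP3 and IGF2BP2 encode RNA-binding proteins that protect HMGA2 mRNA from let-7. IGF2BP3 fell from 9164 ± 1273 to 5009.6 ± 373, a log2 difference of -0.86 (limma adjusted p = 0.00299). IGF2BP2 fell from 14652 ± 1809 to 10259 ± 459, a log2 difference of -0.51 (limma adjusted p = 0.0343). The IGF2BP2 call was lost without FOLFIRINOX P14, P15 or P19, without vehicle P15 or P19, and without both P14 libraries (limma adjusted p from 0.0505 to 0.144), so the count of this list was then 1. It was also lost with no filter on low values and with common-total scaling (log2 difference -0.40), at limma adjusted p of 0.0585 and 0.108. Without vehicle P14 the count was 3, where 1633 of all 17951 genes tested were called lower. The let-7 host genes MIRLET7BHG and MIRLET7A1HG, named after their values were seen, differed by 0.17 and 0.34 on the log2 scale and did not pass the test (limma adjusted p = 0.699 and 0.387). LIN28A, whose protein blocks let-7 maturation, had 0 reads, and LIN28B had 10 reads over all libraries.

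HMGB1 (ENSG00000189403, chr13:30456704-30617597, minus strand) encodes the most abundant HMG-box protein, which also acts outside cells as an alarm signal. It stood at 23072, 12315 and 16564 normalized reads in FOLFIRINOX P14, P15 and P19 and at 33951, 19869.8 and 37714 in the vehicle libraries. The groups overlapped, since vehicle P15 was below FOLFIRINOX P14, but within each P number the treated library was the lower one. The means were 17317 ± 5418 and 30512 ± 9406, and the log2 difference was -0.81 ± 0.27 (95% interval -1.41 to -0.21), which did not pass the unpaired test (limma adjusted p = 0.0525). With P number as a block the interval narrowed to -1.05 to -0.58 and the gene was called (limma adjusted p = 8.46e-07). It was also called unpaired without FOLFIRINOX P14 (limma adjusted p = 0.0222), without vehicle P15 (limma adjusted p = 0.0118), and in the authors' deposited table (adjusted p = 0.0157).

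HMGB2 (ENSG00000164104, chr4:173331695-173335125, minus strand), the HMG-box protein most tied to dividing cells, showed the greatest fall of the 10. Treated libraries held 1866, 836 and 1123 normalized reads, and vehicle libraries 8815, 5234 and 9624, in the order P14, P15 and P19. The highest treated library was still well below the lowest vehicle library, and P15 was the lowest of both groups. The means were 1275 ± 532 and 7891 ± 2336, a 6.19-fold fall. The log2 difference was -2.66 ± 0.30 (95% interval -3.33 to -1.996, limma adjusted p = 1.08e-04), and within P14, P15 and P19 it was -2.24, -2.64 and -3.10.

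HMGB3 (ENSG00000029993, chrX:150980509-150990775, plus strand) encodes a close relative that is best known from blood progenitors and is otherwise low in adult tissue. Its treated libraries were at 2396, 1778 and 2159 normalized reads and its vehicle libraries at 4681, 4777 and 6072. The groups were separate, and the fall was smallest within P14. The means were 2111 ± 312 and 5177 ± 777, a 2.45-fold fall with a log2 difference of -1.29 ± 0.18 (95% interval -1.69 to -0.90, limma adjusted p = 4.70e-04).

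Among the 5 HMGN genes, which encode nucleosome-binding proteins that loosen chromatin, only HMGN2 fell in the unpaired test. HMGN2 (ENSG00000198830, chr1:26472450-26475972, plus strand) stood at 15851, 15241 and 15013 normalized reads with FOLFIRINOX and at 39605, 34301 and 38912 with vehicle. The treated libraries were nearly level with each other, with the highest 1.06 times the lowest, and all lay below the vehicle ones. The means were 15369 ± 433 and 37606 ± 2883, a 2.45-fold fall with a log2 difference of -1.29 ± 0.14 (95% interval -1.60 to -0.98, limma adjusted p = 8.81e-05).

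HMGN1 (ENSG00000205581, chr21:39342315-39349647, minus strand), a close relative of HMGN2, was higher on average after treatment. FOLFIRINOX P14, P15 and P19 held 39149.8, 21379 and 27806 normalized reads and the vehicle libraries 23083, 18315 and 22401. The treated library was the higher within each P number, but FOLFIRINOX P15 lay below vehicle P14 and P19, so the groups overlapped. The means were 29445 ± 8998 and 21266 ± 2578, and the log2 difference of 0.43 ± 0.21 (95% interval -0.04 to 0.91) did not pass the unpaired test (limma adjusted p = 0.174). With P number as a block it did (95% interval 0.20 to 0.66, limma adjusted p = 0.00224). Unpaired, the difference was 0.20 without FOLFIRINOX P14 (limma adjusted p = 0.485) and 0.24 with each library's GC trend removed (limma adjusted p = 0.377). HMGN1 was the only one of the 10 that was higher in all P numbers, which held for 33.7% of all genes tested, and 6 of the 10 were lower in all, which held for 31.5%.

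HMGN3, HMGN4 and HMGN5 did not pass the test with or without the block, and for each the 3 P numbers did not share a direction. HMGN3 (ENSG00000118418, chr6:79201245-79234738, minus strand), whose protein is known from endocrine tissue such as pancreatic islets, held 7451, 3011 and 4043 normalized reads with FOLFIRINOX and 5923, 3746 and 6174 with vehicle. The treated P14 library was the highest of the 6 and the treated P15 library the lowest. Its log2 difference was -0.20 ± 0.31 (95% interval -0.88 to 0.48, limma adjusted p = 0.680).

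HMGN4 (ENSG00000182952, chr6:26538405-26546254, plus strand), a gene related to HMGN2, held 13102, 9573 and 9567 normalized reads with FOLFIRINOX and 11819, 9057 and 11572 with vehicle. The groups lay within the same range. Its log2 difference of -0.02 ± 0.18 had a 95% interval of -0.42 to 0.39 (limma adjusted p = 0.961), and its sign turned to 0.09 when libraries were scaled to a common total. HMGN5 (ENSG00000198157, chrX:81113701-81201942, minus strand), which encodes the HMGN protein with a long acidic tail, was the least abundant, with 867, 361 and 673 normalized reads against 787, 429 and 1049. P15 was the lowest library in both groups. The log2 difference was -0.25 ± 0.36 (95% interval -1.05 to 0.55, limma adjusted p = 0.660). With P number as a block the 95% intervals were narrower, at -0.47 to 0.08 for HMGN3, -0.25 to 0.22 for HMGN4 and -0.58 to 0.08 for HMGN5. In both fits the intervals hold changes in either direction, so the data do not show that the 3 genes stayed level.

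**Figure D2:**
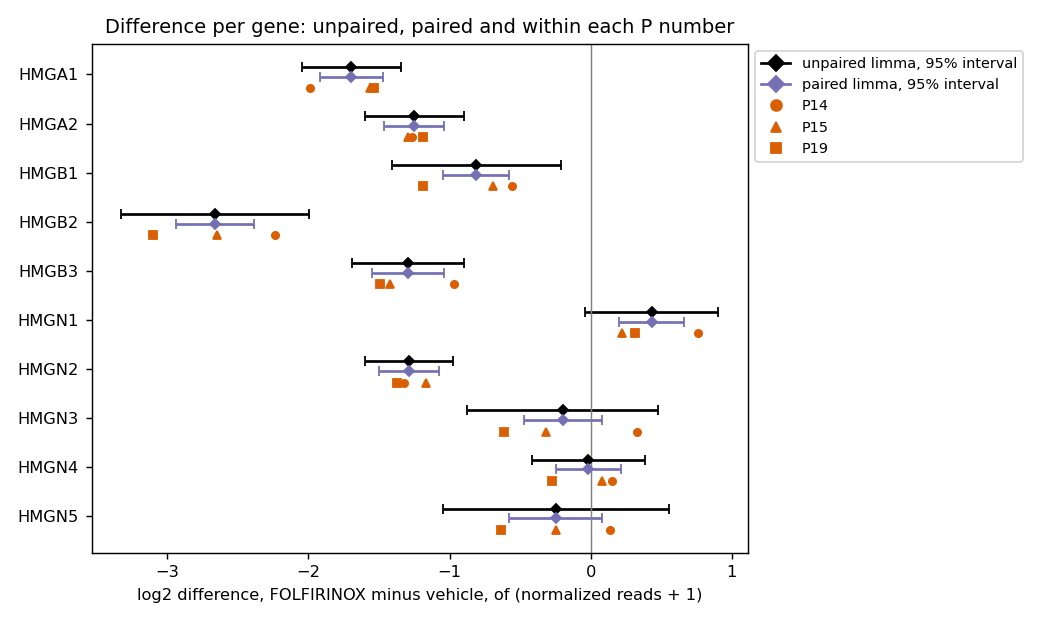
Log2 difference of FOLFIRINOX minus vehicle for each gene, with black diamonds and bars for the unpaired limma estimate and its 95% interval, purple for the fit paired by P number, and orange marks for the difference within P14, P15 and P19. All marks of HMGA1, HMGA2, HMGB1, HMGB2, HMGB3 and HMGN2 lie below 0, those of HMGN1 lie above it, and those of HMGN3, HMGN4 and HMGN5 lie on both sides.

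P15 was the lowest library of both groups for 5 of the 10 genes (HMGB1, HMGB2, HMGN1, HMGN3 and HMGN5), which was so for 16.9% of all genes tested. The highest library was 2.40 times the lowest for HMGN5 with FOLFIRINOX and 2.45 times with vehicle, and 1.87 and 1.90 times for HMGB1. HMGN2 varied least, at 1.06 and 1.15 times. The median over all genes tested was 1.396 times with FOLFIRINOX and 1.46 with vehicle. The cause of this spread was not tested.

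Ratios between relatives within a library do not depend on how libraries are scaled. The log2 ratio of HMGB2 to HMGB1 was -1.95, -1.92 and -1.97 in vehicle P14, P15 and P19, and -3.63, -3.88 and -3.88 in the treated libraries. The 3 vehicle libraries were thus nearly identical in this ratio although their HMGB1 levels spanned 1.90 times, and all treated libraries were far below them. The difference was -1.85, with group means of -3.80 ± 0.15 and -1.95 ± 0.02 (exact permutation test, two-sided, p = 0.1, the smallest p that 3 against 3 allows, and 0.2 after Benjamini-Hochberg adjustment over 3 ratios). HMGB2 and HMGB1 differed by -2.60 and -1.01 with each library's GC trend removed, closer together than the -2.66 and -0.81 of the main fit.

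The log2 ratio of HMGA2 to HMGA1 was -0.99, -0.72 and -0.31 with vehicle and -0.27, -0.46 and 0.04 with FOLFIRINOX. It was higher after treatment within each P number, but the groups overlapped (difference 0.45, exact permutation p = 0.2, adjusted 0.2). With each library's GC trend removed, HMGA1 differed by -1.52 and HMGA2 by -1.44, closer together than the -1.70 and -1.25 of the main fit. The ratios themselves were not rerun in that setting. The log2 ratio of HMGN5 to HMGN1 was -4.87, -5.41 and -4.42 with vehicle and -5.49, -5.88 and -5.37 with FOLFIRINOX. It was lower after treatment within each P number, again with overlapping groups (difference -0.68, exact permutation p = 0.2, adjusted 0.2). None of the 3 ratios can pass 0.05 at this number of libraries.

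**Figure D3:**
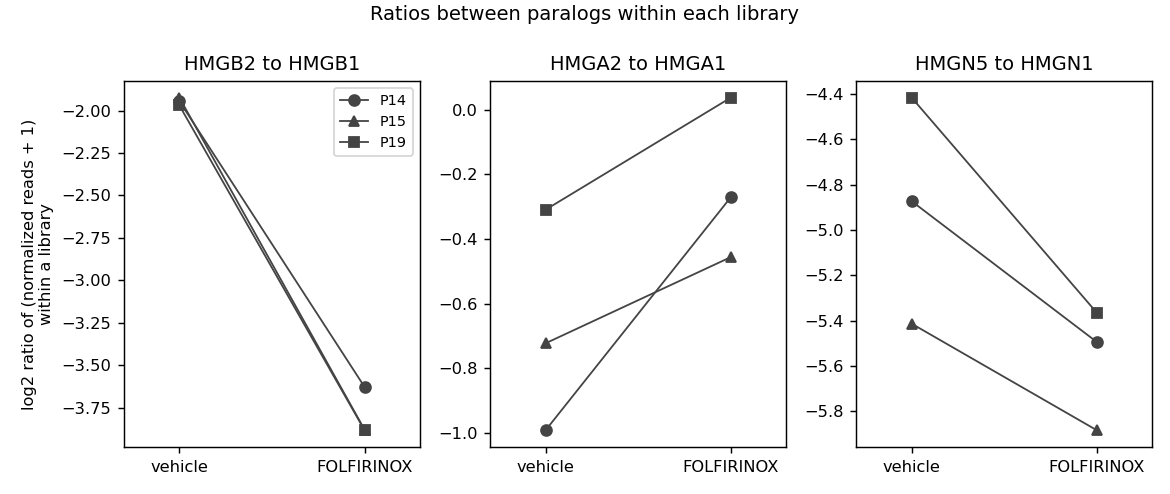
Log2 ratio of normalized reads (each plus 1) of HMGB2 to HMGB1, HMGA2 to HMGA1 and HMGN5 to HMGN1, with a line from the vehicle to the FOLFIRINOX library of each P number and a separate vertical scale in each panel. The lines for HMGB2 to HMGB1 start together near -1.95 and end between -3.63 and -3.88, while the other 2 ratios start apart.

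Levels were compared between genes per kilobase of exon. In vehicle cells HMGA1 led at 24212 ± 3381 normalized reads per kilobase (SD, n = 3), followed by HMGN2 at 14988 ± 1149 and HMGN4 at 8489.7 ± 1199.6, all without overlap. Next came, below the libraries of HMGN4, HMGN3 at 5208, HMGN1 at 4168, HMGB1 at 3951, HMGB2 at 2844 and HMGA2 at 2283, and these neighbours overlapped over the libraries. HMGB3 at 1305 and HMGN5 at 312 were each below the one before in every library, without overlap.

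With FOLFIRINOX the order of these levels changed. HMGN4 was first at 8436 ± 1600.5 normalized reads per kilobase, ahead of HMGA1 at 7446 ± 697, HMGN2 at 6125 ± 173, HMGN1 at 5771 ± 1764 and HMGN3 at 4768 ± 2291. Among these neighbours only HMGA1 and HMGN2 did not overlap, so the leading place of HMGN4 is within the spread. HMGB1 followed at 2242, HMGA2 at 962 and HMGB3 at 532, and from HMGB1 to HMGA2 and from HMGA2 to HMGB3 the libraries did not overlap. HMGB2, at 459 ± 192, overlapped with HMGB3 above it and with HMGN5 at 262 ± 106 below it. With the length of the longest coding transcript in place of all exons, a choice made after seeing the data, the first 3 were HMGN2, HMGA1 and HMGN1 with vehicle and HMGN1, HMGN2 and HMGN4 with FOLFIRINOX. The places of HMGA1, HMGN1, HMGN2 and HMGN4 therefore rest on which length is used, the lead of HMGA1 in vehicle cells included. Places further down also moved, and only HMGN5, the last, kept its place in both groups.

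**Figure D4:**
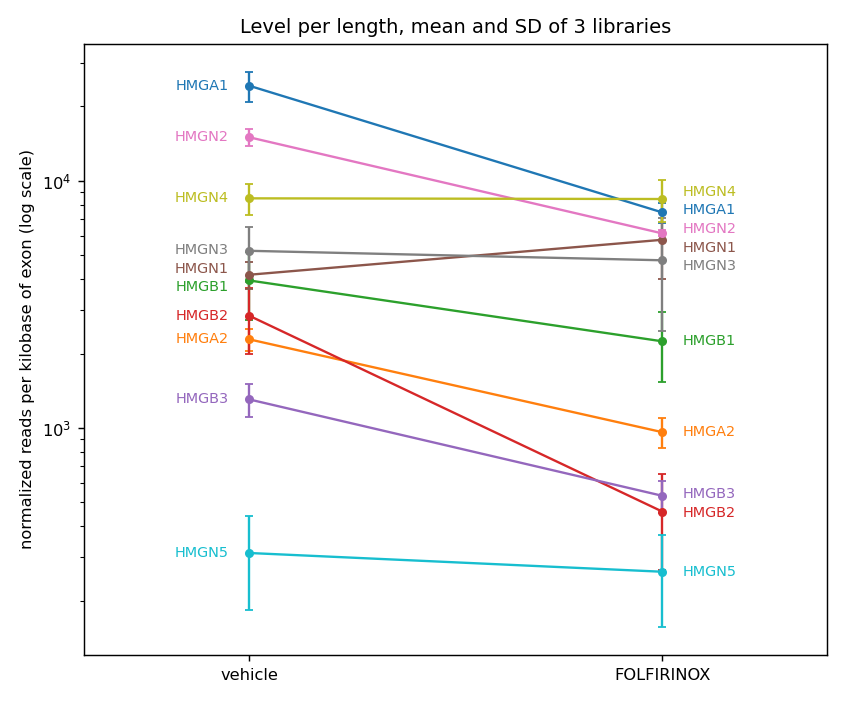
Mean normalized reads per kilobase of exon in vehicle and FOLFIRINOX cells, with SD of 3 libraries as bars, on a log axis and with 1 line per gene. HMGA1 goes from 24212 to 7446 and HMGB2 from 2844 to 459, while HMGN4 goes from 8489.7 to 8436.

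High mobility group genes have many processed pseudogenes, and reads can be split among near-identical copies, so counts of the parent genes carry some uncertainty. The table held 157 rows named as pseudogenes of the 10 genes, of which 76 had reads and 29 were tested. Of these, 10 were called lower and 1 higher, against 12.2% and 11.4% of all genes tested. Reads of a parent may be counted on its copies, which was not tested, so these calls are not independent of those of the parents. Pseudogene rows took 4.19% to 5.52% of the summed reads of HMGB1 and its copies, 1.79% to 2.31% for HMGN2, and at most 1.36% for the others.

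The better covered copies were lower on average with FOLFIRINOX, as their parent genes were. HMGB1P6 went from 686 ± 241 with vehicle to 307 ± 84.5 with FOLFIRINOX and HMGB1P5 from 629 ± 170.0 to 293 ± 131, log2 differences of -1.12 and -1.14 (limma adjusted p = 0.0204 and 0.0216). HMGB1P10 went from 174 to 78.0 (log2 difference -1.07, limma adjusted p = 0.0351). HMGN2P5 went from 344 ± 34.8 to 139 ± 5.20, a log2 difference of -1.30 (limma adjusted p = 9.47e-04), close to that of HMGN2. HMGN2P27 went from 100.1 to 55.5 (log2 difference -0.85, limma adjusted p = 0.03998), and HMGN2P3 from 119 to 72.9 without passing the test (limma adjusted p = 0.0655). The single higher copy was HMGB1P31, from 25.0 to 59.4 (log2 difference 1.22, limma adjusted p = 0.0200), which was named after its values were seen.

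Of the called copies named here, HMGN2P5 kept its call in every alternative run. HMGB1P6 lost it without FOLFIRINOX P15, vehicle P14, vehicle P19 or both P14 libraries, and HMGB1P5 without FOLFIRINOX P15, FOLFIRINOX P19 or vehicle P14. HMGB1P10 lost it without any 1 library except vehicle P15, HMGN2P27 without any 1 library, and HMGB1P31 without FOLFIRINOX P14, FOLFIRINOX P15, vehicle P14 or vehicle P15, and the last also without the P14 pair. HMGB1P10 and HMGN2P27 lost it without that pair too. With no filter on low values HMGB1P10, HMGN2P27 and HMGB1P31 were not called (limma adjusted p = 0.0578, 0.113 and 0.0658), nor was HMGN2P27 with common-total scaling (limma adjusted p = 0.0776) or DESeq2 (adjusted p = 0.0620). When the reads of all copies were added to their parents, HMGB1 stood at a limma adjusted p of 0.04999, just inside the threshold.

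RNAs that overlap 2 of the genes on the opposite strand also changed. Where they overlap, reads of a gene and of its antisense partner cannot be told apart, since it is not stated whether the authors counted by strand. RPSAP52, which overlaps HMGA2 over 2867 bases, held 424, 312 and 352 normalized reads with FOLFIRINOX and 1365, 985 and 1032 with vehicle. Like HMGA2 it fell, with a log2 difference of -1.63 (limma adjusted p = 2.17e-04), and its groups did not overlap. HMGN3-AS1, which overlaps HMGN3 over 1021 bases, held 294, 215 and 279 against 121, 161 and 140.2. It rose by 0.89 on the log2 scale (limma adjusted p = 0.0158), although HMGN3 did not pass the test. That call was lost without FOLFIRINOX P14, FOLFIRINOX P19 or vehicle P14 and without both P14 libraries (limma adjusted p from 0.0554 to 0.123). The other rows that overlap the 10 genes, HMGA2-AS1 among them, reached at most 13.4 normalized reads.

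The wider HMG-box class holds transcription factors and chromatin subunits built on the same DNA-binding fold. Of 24 listed, 22 were tested, with a median log2 difference of -0.29. Of the 22, 3 were called higher and 7 lower, against 11.4% and 12.2% of all genes tested. WDHD1, a replication fork protein, fell from 2464 ± 1079 to 826 ± 280.3, a log2 difference of -1.54 (limma adjusted p = 0.00419). SOX9, a factor of duct and progenitor cells, fell from 1545 ± 236 to 791 ± 52.3, a log2 difference of -0.96 (limma adjusted p = 0.00281).

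SOX4, a factor of progenitor cells and of transforming growth factor beta responses, went the other way. It rose from 1526 ± 459 to 4694 ± 159.7, a log2 difference of 1.67 (limma adjusted p = 3.07e-04). SMARCE1, a subunit of the BAF remodelling complex, rose from 596 ± 109 to 909 ± 80.0, by 0.62 (limma adjusted p = 0.0367), a call that was lost without any 1 library except vehicle P19. The count of higher genes was 1 when P14 or P19 was left out of the FOLFIRINOX group, or P14 or P15 out of the vehicle group. Over all 17951 genes tested, 1318 to 1580 were called higher in those runs. Leaving out P14 in both groups gave 1 higher and 4 lower, where 1162 and 1368 of all 17951 genes tested were called. With P number as a block 4 were higher and 11 lower, against 22.3% and 21.8% of all genes tested.

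Linker histones compete with HMGN and HMGB proteins for nucleosomes, and H1-2 encodes one of them. H1-2 held 9539, 9147 and 7201 normalized reads with FOLFIRINOX and 1612, 932 and 824 with vehicle. Its groups were far apart, and the log2 difference was 2.99 ± 0.24 (95% interval 2.46 to 3.53, limma adjusted p = 8.51e-06). Most histone mRNAs made in S phase end in a stem-loop and not in a poly(A) tail, and RNA without a tail was not measured in these poly(A)-enriched libraries. The values of H1-2 therefore cover only its RNA with a tail and do not show how its total mRNA changed.

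Genes of the senescence-associated heterochromatin, in which HMGA proteins are known as structural parts, were all tested. Of 14, 0 were called higher and 4 lower, against 11.4% and 12.2% of all genes tested. Their median log2 difference was -0.15. LMNB1, which encodes lamin B1 of the nuclear envelope, held 129, 132 and 116 normalized reads with FOLFIRINOX and 4809, 6613 and 6859 with vehicle. It fell by 5.58 on the log2 scale (limma adjusted p = 1.06e-08), more than any of the 10 high mobility group genes. SUV39H1, a histone H3 lysine methyltransferase, fell from 983 ± 29.9 to 221 ± 47.0, a log2 difference of -2.17 (limma adjusted p = 2.52e-05). The chaperone genes HIRA, ASF1A, UBN1, UBN2 and CABIN1, named after their values were seen, were not called in the unpaired test (limma adjusted p from 0.0797 to 0.959). With the block, 1 gene of the list was higher and 6 were lower, against 22.3% and 21.8% of all genes tested. The higher gene was UBN2, with a log2 difference of 0.42 (limma adjusted p = 0.0130 with the block). Among the 6 were HIRA and CABIN1, with log2 differences of -0.48 and -0.31 (limma adjusted p = 0.0102 and 0.0475).

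The SET complex, of which HMGB2 is a part, acts in DNA repair and cell death. A list of 6 genes around it had 5 tested, with a median log2 difference of -0.14. Of the 5, 0 were called higher and 2 lower, against 11.4% and 12.2% of all genes tested. ANP32B, a histone-binding protein, fell from 23613 ± 795 to 13104 ± 2041, a log2 difference of -0.86 (limma adjusted p = 0.00281). Its relative ANP32A, named after its values were seen, was not called (log2 difference -0.14, limma adjusted p = 0.553). APEX1, an endonuclease of base excision repair, fell from 15408 ± 1016 to 10396 ± 297, a log2 difference of -0.57 (limma adjusted p = 0.0150). The APEX1 call was lost when FOLFIRINOX P19 or the P14 pair was left out (limma adjusted p = 0.0796 and 0.0623), and with common-total scaling (log2 difference -0.46, limma adjusted p = 0.0506), and the count was then 1.

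Among 8 genes of HMGB1 acetylation and nuclear export, all tested, the median log2 difference was -0.12. Of the 8, 0 were called higher and 1 lower, against 11.4% and 12.2% of all genes tested, so the lower count is near that share. PARP1, which modifies HMGB1 after DNA damage, held 6801, 7376 and 7732 normalized reads with FOLFIRINOX and 13660.1, 16804 and 17794 with vehicle. Its groups did not overlap, and it fell by 1.13 on the log2 scale (limma adjusted p = 5.03e-04). With the block 3 were lower, against 21.8% of all genes tested.

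Partners and receptors of extracellular HMGB1 were the last list, with 7 tested of 11 and a median log2 difference of -0.31. Of the 7, 0 were called higher and 1 lower, against 11.4% and 12.2% of all genes tested, so the lower count is near that share. CXCL12, a chemokine that binds HMGB1, held 179, 114 and 226 normalized reads with FOLFIRINOX and 430.3, 645 and 839 with vehicle. It fell by 1.88 on the log2 scale (limma adjusted p = 0.00131), without overlap of the groups. TLR4, named after its values were seen, stood at 5059 ± 1199 against 3541 ± 1268. It was called higher with the block (limma adjusted p = 4.74e-04) but not without it (0.142). With the block 1 gene of the list was higher and 2 were lower, against 22.3% and 21.8% of all genes tested. AGER, the receptor RAGE, also named after its values were seen, was near the low end at 46.2 ± 17.1 and 55.2 ± 9.05. Without vehicle P19 the list had 1 gene called higher, where 2218 of all 17951 genes tested were.

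**Figure D5:**
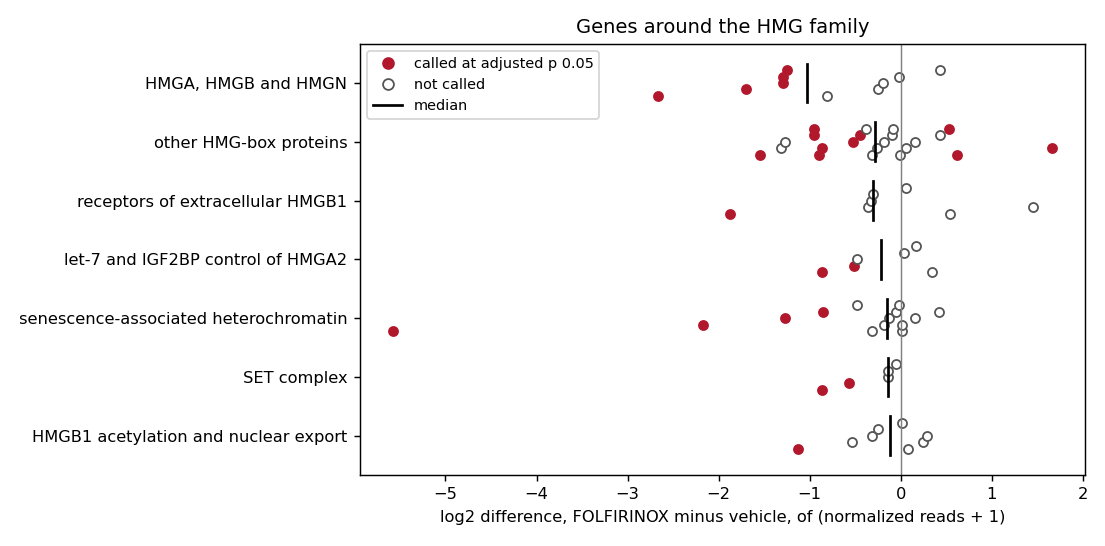
Log2 difference of FOLFIRINOX minus vehicle for each tested gene of the 10 high mobility group genes and 6 related lists, filled where the limma adjusted p is below 0.05, with a bar at the median of each list. The high mobility group genes have a median of -1.03, and the medians of the other lists lie between -0.31 and -0.12.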

How the data were processed

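The 6 libraries hold poly(A)-enriched RNA. Per the submitters' processing notes, the authors worked on GRCh38 and ran DESeq2, featureCounts 2.0.6, STAR 2.7.11b and FastQC 0.12.1. Strand setting and annotation release: not given in the sources used here. The deposited table holds a normalized signal per library (counts divided by size factors) and the authors' log2 fold changes, test score and p-values. All signal values (100%) were whole multiples, within 0.001, of the value of 1 read, so read counts were recovered. Low counts were mostly even (72.3% to 74.8% of those below 50).

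On log2(value + 1), limma 3.58.1 was run with its trend option over genes that reached 10 in 3 or more libraries, adjusted by Benjamini-Hochberg over 17951 genes, and it was tested on simulated data. The added 1 makes the changes of low genes look smaller. The 95% half-width of a log2 difference had a median of 0.497 (SE 0.226). The members and lists were chosen with earlier results of these data known. Named were all 10 genes, up to 2 called genes per direction of each list with a mean of 50 or more, pseudogenes with a mean of 100 or more, and antisense rows. A gene that this rule names, and the counts of the list that holds it, are not reported here. Replicates differed by more than sampling noise (chi-square per degree of freedom 78.0 to 242).

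The P numbers come from the column names and appear in no label. Deviations from group means correlated at 0.257, 0.282 and 0.288 between libraries with the same P number, all above 0.1, and at -0.26 to -0.03 between others, so the numbers were read as pairs. Alternatives were pseudocounts 0.5 and 8, other filters, TMM and common-total scaling, edgeR 4.0.16 and DESeq2 1.42.0 on the recovered counts, the block, removal of each library's GC trend, pseudogene reads added, and libraries left out. Gene positions, lengths and 3′ UTRs came from GENCODE 29, and promoter windows and the microRNA from RefSeq.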

Additional observations from a re-analysis of the deposited data

How the results depend on the processing

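HMGA1, HMGA2, HMGB2, HMGB3 and HMGN2 were called lower under all 19 alternatives run for each. The count called lower stayed at 5 or 6 in all but 1 alternative, and the count called higher at 0 in all but 2. With the replicate block on P number the counts were 1 higher and 6 lower, and with the block and the GC trend removed together 1 higher and 8 lower, against 23.8% and 25.2% of all genes tested. The latter added HMGN3 at -0.30 and HMGN5 at -0.53 (limma adjusted p = 0.0155 and 0.00109), whose groups overlapped. HMGB1 was called in 8 of 19 alternatives, among them GC trend removed (-1.01, limma adjusted p = 0.00787), and HMGN1 in 2, the block and the block with GC trend removed, the latter at 0.24 (limma adjusted p = 0.0219). The block changed no other call among the 10 genes. HMGN4 turned to 0.0946 with common-total scaling, which shifts the median of all genes by 0.11 and moved the split over all genes from 2047 higher and 2191 lower to 2694 and 1696. Leaving out 1 library at a time gave -0.56 to 0.0903 for HMGN3, -0.17 to 0.0605 for HMGN4 and -0.61 to 0.11 for HMGN5, turning the sign of each. For the same leave-outs HMGB1 ran from -1.09 to -0.59, and HMGN1 from 0.20 to 0.64. The 3 ratios kept their direction in every alternative run on them, namely pseudocounts, pseudogene reads added and 1 library left out. Removal of the GC trend was not run on the ratios. In that setting the log2 differences of HMGA1 and HMGA2 were -1.52 and -1.44, closer together than in the main fit. Those of HMGB2 and HMGB1 were -2.60 and -1.01, also closer together, and those of HMGN5 and HMGN1 were -0.53 and 0.24, further apart. With the ratios paired by P number, an alternative chosen after seeing the data, an exact sign-flip test gave 0.25 for each, its smallest possible p. All alternatives for the related lists were also chosen then. At this depth all 10 genes had at least 361 normalized reads in each library, so the spread between libraries and their number, not counting, limit the precision.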
